A study of Gallus gallus with 6 samples.

Results

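DEAD and DEAH box proteins are enzymes of RNA metabolism that use ATP to unwind RNA duplexes or to strip proteins from RNA, and they are named after the amino acids of a conserved ATPase motif. DEAD box (DDX) proteins open short duplexes locally, whereas DEAH box (DHX) proteins move along the strand. Different members serve splicing, ribosome assembly, export, translation and decay of RNA, and several bind viral RNA in macrophages and other cells. The 40 genes described here are those whose symbol in the deposited matrices begins with DDX or DHX and a number, of 14903 genes in all. DHX58 and DDX60 were set apart by this rule. The set held 27 DDX and 13 DHX genes. The rule reads symbols, not measured values, but the members were chosen with earlier results of these data known.

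The cells were HD11, a chicken macrophage-like line labelled wild type. The IFN-beta group was 3 libraries made after 3 h of recombinant chicken IFN-beta (interferon beta, an antiviral cytokine) at 100 ng/mL, and the mock group was 3 libraries of cells left untreated, for which the labels give no time. All 6 carry the same batch label and are described as independent biological replicates of this 1 line. The library totals were 15824645 to 15885227 counts in IFN-beta and 15665594 to 15735291 in mock. Of 10 macrophage markers 9 were found, with a summed level of 4329 to 4421.5 TPM in IFN-beta and 3904 to 3996 TPM in mock. TPM is abundance scaled for transcript length and for the library's total. The macrophage sum was higher in every IFN-beta library, and its part in the results was not tested. In bulk RNA, fewer cells of a type and less RNA per cell cannot be told apart. The summed level of the 3 T cell markers found was 0.740 to 1.06 TPM in IFN-beta and 0.570 to 1.59 TPM in mock, that of 2 B cell markers 4.58 to 5.19 and 5.57 to 6.97 TPM, and the 5 erythroid, fibroblast and epithelial markers found stayed under 1 TPM in sum. None of the markers found was at 0 in all 6 libraries.

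The helicase genes covered a wide range of levels. Together they held 3424 ± 82.8 TPM in IFN-beta and 3248.5 ± 93.4 TPM in mock (SD, n = 3 each). The 4 most abundant took 49.1 to 49.4% of that sum in the IFN-beta libraries and 45.5 to 46.2% in the mock libraries. DDX5, a coactivator of transcription that also acts in splicing, was the most abundant. Its level was 895, 857 and 864 TPM in IFN-beta and 774, 752 and 721 TPM in mock, over 2 times that of any other member. DDX3X, which helps to start translation on structured mRNAs, followed with 304 ± 15.3 and 281 ± 15.8 TPM in IFN-beta and mock. The next were DDX27 (257 ± 6.17 TPM in IFN-beta and 235 ± 3.19 TPM in mock) and DDX21 (254 ± 6.35 and 224 ± 7.71 TPM), both of ribosome assembly, whose levels overlapped in IFN-beta. DDX19B, an export factor at the nuclear pore, had 167 ± 9.69 TPM in IFN-beta and 179 ± 3.03 TPM in mock. DDX1, DDX18 and DHX15 were also above 100 TPM.

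Another 25 members lay between 10 and 100 TPM, and the remaining 7 lay under 10 TPM. Neighbours in the middle of the order were often within each other's spread, as DDX47 at 79.96 ± 3.15 TPM and DDX24 at 78.6 ± 3.17 TPM in IFN-beta. DDX25 and DDX4, which act in germ cells, were near the floor. DDX25 was listed at 0 in 2 IFN-beta and 2 mock libraries, with 1 read in each of the other libraries, and DDX4 had 2 to 6 reads per library. DHX32 had 2 to 6 reads per library as well. These 3 genes were removed by the filter on low counts, which left 37 members with a test.

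**Figure D1:**
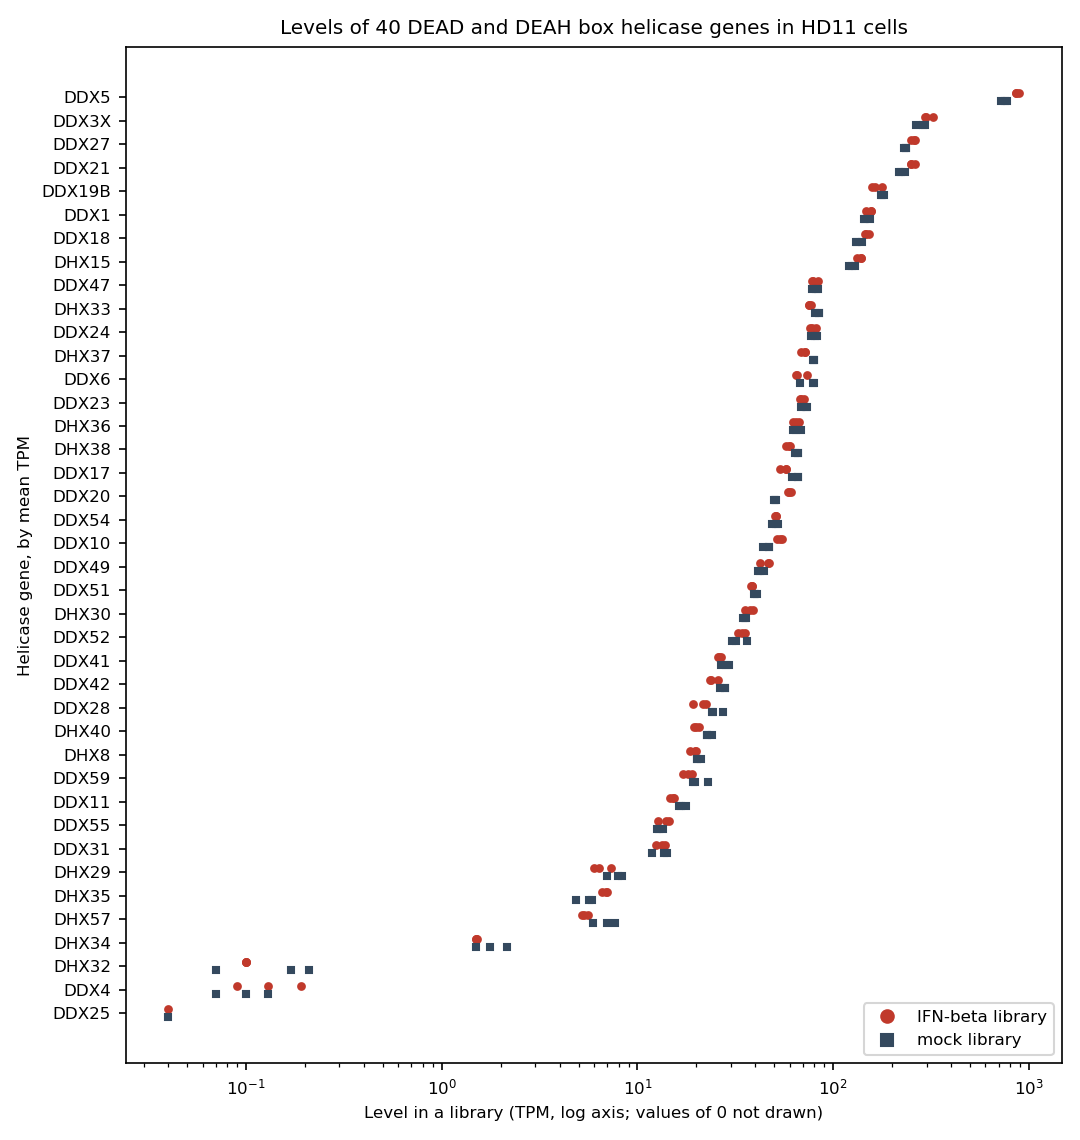
Level of each of the 40 helicase genes in TPM on a log axis, ordered by the mean over 6 libraries, with IFN-beta libraries as circles above mock libraries as squares. DDX5 stood alone at the top, 8 genes were above 100 TPM, and DHX32, DDX4 and DDX25 lay far below the others.

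The comparison of IFN-beta with mock gave small changes in both directions. Among 37 helicases with a test, 16 were called higher, 1 lower and 20 neither (edgeR quasi-likelihood test, Benjamini-Hochberg adjusted p under 0.05 over 11091 genes). Called members were 45.9% of those tested, against 46.7% of all tested genes, so the share that changed was near the background. The CPM of the groups did not overlap for 18 members (48.6%), against 53.9% of all tested genes. The split by direction was 43.2% higher and 2.70% lower among the members, against 24.3% higher and 22.4% lower among all tested genes. The median log2 fold change was 0.09 over the members and -0.0010 over all tested genes. Library size alone as the scale turned the members' median to -0.0012.

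With DHX58 and DDX60 set apart, no change of a member reached 1.5-fold. The log2 fold changes ran from -0.24 for DHX57 to 0.44 for DHX35, and 0 of 37 members exceeded 1.5-fold, as 1332 of 11091 tested genes did. In a test against a 1.5-fold change (glmTreat) 0 members were called, and 0 had an unadjusted p under 0.05. By contrast DHX58, the RNA sensor LGP2, had 20.1 ± 2.13 CPM in IFN-beta and 2.57 ± 0.343 CPM in mock, a log2 fold change of 2.97 (SE 0.13). DDX60, an antiviral helicase, had 3.24 ± 0.128 and 1.05 ± 0.248 CPM (1.62, SE 0.21), at a low level of 0.567 and 0.200 TPM on average. Both genes changed by more than 1.5-fold, so the 0 among members depends on their being set apart.

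**Figure D2:**
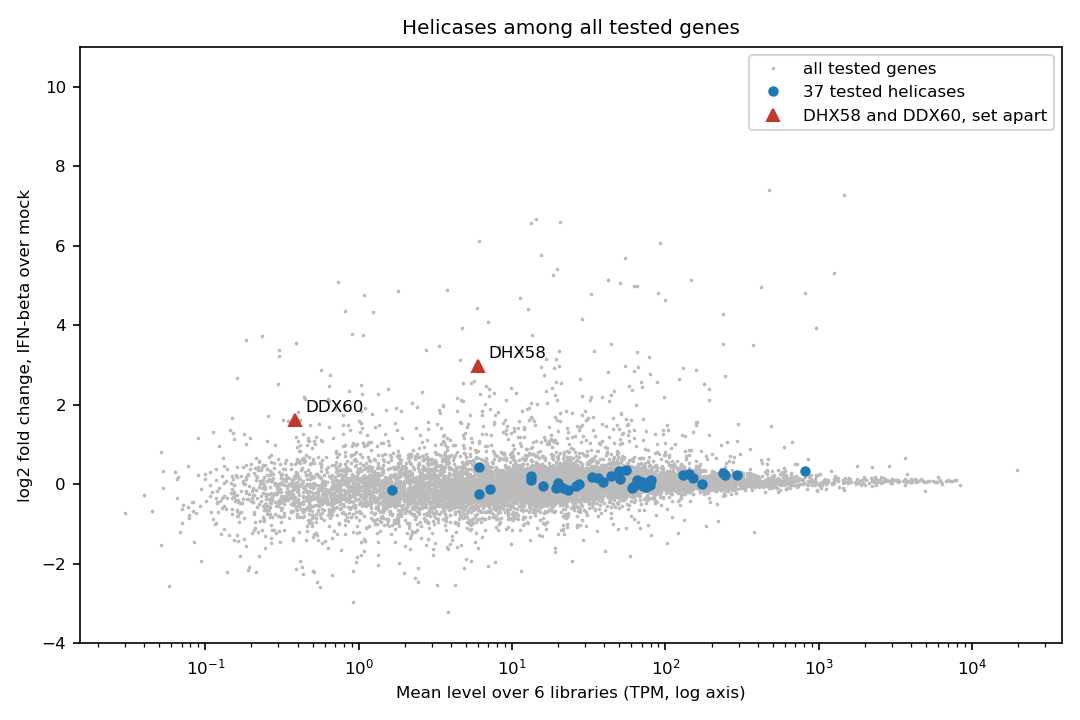
Log2 fold change of IFN-beta over mock against mean level in TPM (log axis), with 1 grey point per tested gene, blue circles for the 37 tested helicases and red triangles for DHX58 and DDX60. The helicases lie between -0.24 and 0.44, while DHX58 stood at 2.97 and DDX60 at 1.62.

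With changes this small the scaling of the libraries bears on each direction. Values between groups are given as scaled CPM, in which each library's total is adjusted by its TMM factor (0.963 to 0.973 in IFN-beta, 1.03 to 1.04 in mock). This scaling puts the median gene at no change. With libraries scaled by their size alone the median of all tested genes was -0.09, and on log2(TPM + 1) it was -0.10. The members then split into 9 that rose and 11 that fell by library size alone (24.3% and 29.7%, against 15.6% and 36.1% of all tested genes), and into 8 and 9 on log2(TPM + 1). The median of the members relative to that of all tested genes was 0.09 by TMM and 0.09 by library size alone. These values match by construction, since library factors shift all genes nearly alike. The relative median was 0.08 on log2(TPM + 1), but 0.03 on log2(TPM + 1) without a filter on low values. In the test against a 1.5-fold change no member was called. In the other 17 settings, which covered these scalings, other filters and tests and each library left out, 8 members were called higher every time: DHX35, DDX20, DDX5, DDX10, DDX21, DDX18, DHX15 and DDX27. DHX57, called lower under TMM, was not called in every setting.

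**Figure D3:**
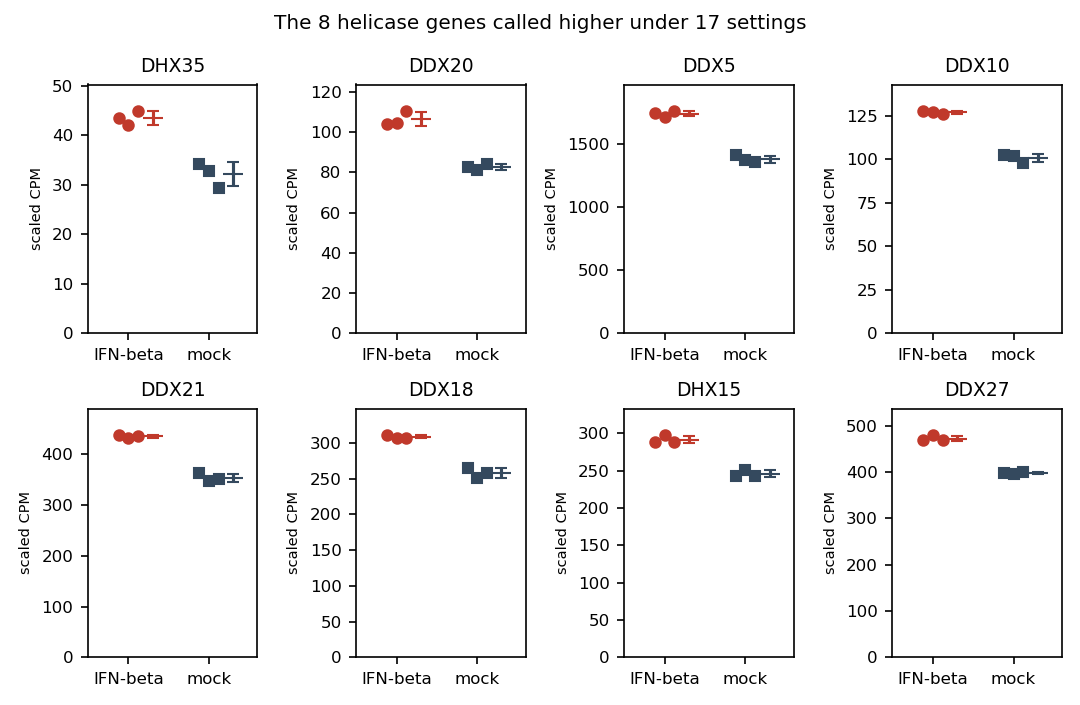
Scaled CPM of the 8 helicase genes called higher in all 17 settings other than the test against 1.5-fold, with 1 point per library, IFN-beta left of mock, and the mean with its SD (n = 3) beside the points. In each panel the 3 IFN-beta libraries lie above the 3 mock libraries.

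Of 4 helicases of transcription and of RNA-protein assembly, 3 rose and 1 did not pass (median 0.25), and by library size alone 2 rose and 1 fell (0.16). DDX5 had 1747, 1716.5 and 1760.5 CPM in the IFN-beta libraries, against 1410.5, 1372 and 1359 CPM in the mock libraries. Every IFN-beta library was above every mock library, and the rise was 1.26-fold (log2 fold change 0.34, SE 0.03, edgeR adjusted p 6.1e-08). DDX17, its close paralogue with overlapping tasks, had 219, 209 and 227 CPM in IFN-beta and 237, 236 and 226 CPM in mock. The groups overlapped and it did not pass (-0.09, SE 0.04, edgeR adjusted p 0.0623), although it was called lower by library size alone (-0.18, edgeR adjusted p 0.000517), with upper quartile factors, on log2(TPM + 1), with the replicate block, and without IFN-beta replicate 3 or mock replicate 3. The ratio of the 2 genes within a library is free of such scaling. DDX5 had 7.96, 8.21 and 7.75 times the counts of DDX17 in the IFN-beta libraries, against 5.96, 5.82 and 6.02 times in the mock libraries, a 1.34-fold difference. The groups did not overlap, and a two-sided exact permutation test of the log2 ratio gave p = 0.1, the smallest that 3 against 3 allows.

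DDX20, the Gemin3 subunit of the SMN complex that loads Sm proteins onto spliceosomal RNAs, had the second-largest increase of the 37. It stood at 104, 105 and 110.4 CPM in IFN-beta, against 82.5, 81.0 and 84.3 CPM in mock (log2 fold change 0.36, SE 0.04, edgeR adjusted p 9.6e-07). Its groups did not overlap. Of 6 other tested proteins of the SMN complex, SMN rose (0.20), GEMIN6 (-0.33) and GEMIN8 (-0.18) fell, and 3 did not pass. SMN did not pass on log2(TPM + 1), while GEMIN6 was lower in every setting except that against 1.5-fold. DDX1, a subunit of the ligase complex that joins tRNA exons, had 261, 253 and 272 CPM in IFN-beta and 241, 229 and 233 CPM in mock, without overlap (0.16, SE 0.04, edgeR adjusted p 0.00152). DDX1 did not pass by library size alone (0.07, edgeR adjusted p 0.122) or on log2(TPM + 1) (0.045, limma adjusted p 0.362). Of 5 tested proteins of the ligase complex, RTRAF, listed as C5H14orf166, rose (0.18) and 4 did not pass. RTRAF (C5H14orf166) did not pass by library size alone, with upper quartile factors or on both TPM scales. It also did not pass without mock replicate 2 (0.14, edgeR adjusted p 0.0518).

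Helicases of ribosome biogenesis were the largest role group, with 13 members, all tested. They unwind ribosomal RNA precursors and release the guide RNAs that modify them, roles known best from budding yeast. Of the 13, 8 rose (61.5%, against 24.3% of all tested genes) and 5 did not pass, with a median of 0.17. Library size alone gave 4 higher and 1 lower (median 0.08), against 15.6% and 36.1% of all tested genes. The counts were the same on log2(TPM + 1) (0.06), against 13.5% and 37.6% of all tested genes. None of the 13 was lower by edgeR under TMM or by DESeq2 with its own size factors, with 0 at an unadjusted p under 0.05 in each. Relative to all tested genes the group's median was 0.17 by TMM and by library size alone and 0.16 on log2(TPM + 1). The match of TMM and library size is by construction, since library factors shift all genes nearly alike.

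The 2 members grouped here under both subunits or the transcription of ribosomal DNA rose in each scaling. Each member was counted under its main role alone. DHX33, also of ribosomal RNA synthesis, was counted under sensing, did not pass (-0.02) and was called lower by library size alone (-0.11). DHX15, which also serves ribosome assembly and rose, was counted under splicing. DDX21, a nucleolar helicase that also regulates RNA polymerase I, had 438, 431 and 437 CPM in IFN-beta, against 363, 348 and 351 CPM in mock (0.30, SE 0.03, edgeR adjusted p 4.7e-07). DDX18 had 311, 307 and 308 CPM, against 266, 251 and 258 CPM (0.26, SE 0.03, edgeR adjusted p 4.9e-06). Neither gene had a mock library that reached an IFN-beta library.

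Of 5 small-subunit members 4 rose under TMM. DDX10 had 128, 127 and 126 CPM in IFN-beta and 102, 102 and 98.2 CPM in mock (0.34, SE 0.04, edgeR adjusted p 7.6e-07), and it was the only one of the 5 called higher by library size alone. DDX49 stood at 76.9 ± 4.60 and 66.6 ± 1.91 CPM in IFN-beta and mock (0.21), DDX52 at 58.4 ± 2.07 and 51.8 ± 4.26 CPM (0.17) and DDX47 at 144 ± 2.87 and 135 ± 2.54 CPM (0.10). The calls of DDX52 and DDX47 were lost in the authors' deposited table, where the adjusted p was 0.0630 for DDX52 and 0.117 for DDX47, and DDX47 lost its call when any 1 IFN-beta library, or mock replicate 1 or 3, was left out. DDX52 lost its call when IFN-beta replicate 3, mock replicate 2 or mock replicate 3 was left out. DHX37, which frees a guide RNA from the early small subunit in yeast, was not called under TMM. It had 307 ± 4.75 CPM in IFN-beta and 319.95 ± 6.65 CPM in mock (-0.06), without overlap. It was called lower by library size alone, with upper quartile factors and on both TPM scales.

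Of 6 large-subunit members 2 rose under TMM (33.3%, against 24.3% of all tested genes). DDX27 had 469, 479.7 and 469 CPM in IFN-beta, against 397, 397 and 401 CPM in mock (0.25, SE 0.03, edgeR adjusted p 3.7e-06). DDX54 had 147 ± 4.10 and 135 ± 6.34 CPM (0.12, edgeR adjusted p 0.0219) and was not called by library size alone, in the authors' deposited table (adjusted p 0.0587), or when IFN-beta replicate 2 or 3 or mock replicate 1 or 2 was left out. DDX24, which also binds RNA and dampens RNA sensing in mammals, had 212, 200.5 and 210 CPM in IFN-beta and 199.9, 193 and 190.4 CPM in mock. Its groups did not overlap, yet it stood just outside the threshold (0.09, SE 0.04, edgeR adjusted p 0.0507). It was called higher without a filter on low counts, with the replicate block, and when IFN-beta replicate 2 or mock replicate 1 was left out. By library size alone its log2 fold change was -0.0012. DDX55 (0.20, SE 0.09), DDX31 (0.12, SE 0.07) and DDX51 (0.06, SE 0.04) did not pass either. DDX55 had 17.8 ± 1.56 CPM in IFN-beta and 15.5 ± 0.842 CPM in mock. It was called higher with the replicate block and when IFN-beta replicate 1 or mock replicate 3 was left out.

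Other proteins of ribosome assembly formed a list chosen from general knowledge. Of 19 tested, 13 rose and 6 did not pass (median 0.14), and by library size alone 6 rose and 1 fell (median 0.05). Under TMM 68.4% were called, against 46.7% of all tested genes. UTP3, a factor of the small-subunit precursor, had 82.9 ± 1.29 CPM in IFN-beta and 62.0 ± 4.65 CPM in mock (0.42), and NOP58, a core protein of methylation guide particles, had 472 ± 15.0 and 384 ± 11.1 CPM (0.30). Both were called higher in each of the 17 settings other than the test against 1.5-fold, where neither was.

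**Figure D4:**
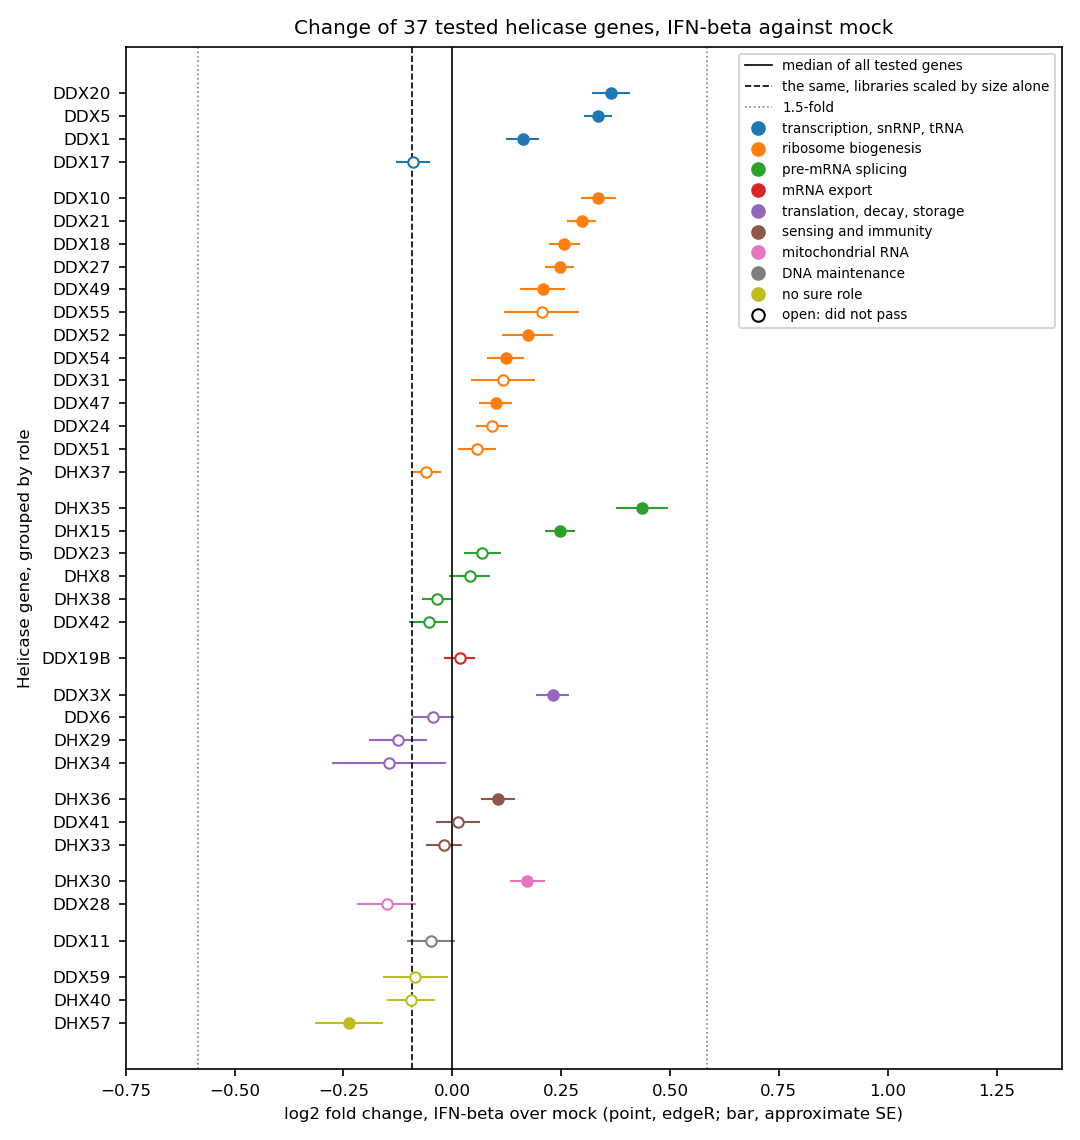
Log2 fold change of IFN-beta over mock for 37 helicase genes by role, with approximate SE bars, filled points for called genes, a solid line at the median of all tested genes, a dashed line at that median with libraries scaled by size alone (-0.09), and dotted lines at 1.5-fold. No point reaches the dotted lines, and DHX35, DDX20, DDX5 and DDX10 lie farthest to the right, while by library size alone 9 genes rose and 11 fell.

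Splicing helicases drive the spliceosome from 1 state to the next. Of 6 members 2 rose (33.3%, against 24.3% of all tested genes) and 4 did not pass, with a median of 0.05. By library size alone 2 rose and 2 fell (median -0.04), against 15.6% and 36.1% of all tested genes. DHX35, a component of late spliceosomes, had the largest increase among the 37 at a low level. It had 43.5, 42.2 and 44.9 CPM in IFN-beta, against 34.2, 32.9 and 29.5 CPM in mock, without overlap (1.35-fold, log2 fold change 0.44, SE 0.06, edgeR adjusted p 6.8e-06). Its deposited counts were fractional in IFN-beta replicates 1 and 2 and in mock replicate 2, and whole in the other libraries. DHX15, which takes spliceosomes apart and also serves ribosome assembly, had 288, 297 and 289 CPM in IFN-beta and 243, 251 and 243 CPM in mock (0.25, SE 0.03, edgeR adjusted p 7.4e-06). DHX38 and DHX8, which act around the catalytic steps, and DDX23 and DDX42, which act as the spliceosome forms, lay between -0.05 and 0.07 and did not pass. DHX38 and DDX42 were called lower by library size alone, with upper quartile factors and on both TPM scales.

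DHX15 and its relatives are activated by G-patch proteins. Of 18 tested, 8 rose, 4 fell and 6 did not pass (median 0.02), while by library size alone 5 rose and 7 fell. Under TMM 66.7% were called, against 46.7% of all tested genes. CMTR1, a cap methyltransferase that binds DHX15 and is known as an interferon-stimulated gene in mammals, had 186 ± 9.51 CPM in IFN-beta and 55.8 ± 4.14 CPM in mock. Its log2 fold change of 1.74 (SE 0.05) was the largest among 89 tested partner genes, of which 2 changed by more than 1.5-fold. The other was HFM1, a meiotic helicase named here after its values were seen, at 1.52 ± 0.421 and 2.57 ± 0.681 CPM (-0.75). RBM17, a splicing factor, rose with 105 ± 5.88 CPM in IFN-beta and 80.8 ± 2.31 CPM in mock (0.38). The 4 G-patch genes that fell, named here after their values were seen, were SUGP2, at 48.4 ± 0.764 CPM in IFN-beta and 62.0 ± 2.15 CPM in mock (-0.36), GPATCH1 (-0.23), ZGPAT (-0.23) and SUGP1 (-0.21).

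In export, translation, decay and storage of mRNA, 1 of 5 helicases rose, against 24.3% of all tested genes. DDX3X had 1105, 1032 and 1066 CPM in IFN-beta, against 942, 916 and 871 CPM in mock (0.23, SE 0.04, edgeR adjusted p 4.2e-05). Its groups did not overlap in CPM, but they overlapped in TPM and it did not pass on log2(TPM + 1) (0.11, limma adjusted p 0.0657). DDX6, which represses translation and feeds mRNA into decapping, had 330, 298 and 300 CPM in IFN-beta and 336, 328 and 293 CPM in mock. The groups overlapped (-0.04, SE 0.05), and DDX6 was called lower by library size alone (-0.14) and without mock replicate 3, its lowest mock library (-0.10, edgeR adjusted p 0.0336). On the RefSeq assembly DDX6 overlaps BCL9L (log2 fold change 0.16), with 1345 counts on average against 4960.5 for DDX6. Without a stated strand setting, reads of these genes cannot be told apart where they overlap. DHX29, which helps ribosomes to scan structured leaders, had 53.0, 44.2 and 47.8 CPM in IFN-beta and 55.9, 53.7 and 48.5 CPM in mock (-0.12, SE 0.07). DHX29 was not called, except lower without IFN-beta replicate 1 (-0.19), without mock replicate 3 (-0.18), by library size alone (-0.22), with upper quartile factors (-0.18) and with the replicate number as a block (-0.12). DHX34, of nonsense-mediated decay, had 5.54 ± 0.150 and 6.12 ± 1.04 CPM in IFN-beta and mock and did not pass. DDX19B had 414 ± 15.4 and 409.6 ± 4.13 CPM (0.02, SE 0.04) and did not pass, and its counts were fractional in every library but mock replicate 1.

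Partners of these and of related helicases changed in part. The share of all tested genes called under TMM was 46.7% (24.3% higher and 22.4% lower). By library size alone 15.6% of all tested genes rose and 36.1% fell. Among 12 decapping and storage partners of DDX6, 4 rose and 2 fell (by library size alone 2 and 4), led by EDC4, a scaffold of the decapping complex, at 180 ± 6.68 CPM in IFN-beta and 133 ± 6.44 CPM in mock (0.44), and by DCP1A, an activator of the decapping enzyme (0.40). The 2 that fell, named here after their values were seen, were DCP1B, the paralogue of DCP1A, at 16.4 ± 0.462 CPM in IFN-beta and 21.8 ± 1.48 CPM in mock (-0.42), and CNOT1, the scaffold of the deadenylase complex (-0.12). The TREX export complex is the partner of DDX39B, which was not analysed here. Of 9 tested members of the complex 7 rose (77.8%) and 2 did not pass (median 0.14). By library size alone 2 rose and 7 did not pass (0.05). On log2(TPM + 1) 1 rose and 1 fell (0.03), against 13.5% and 37.6% of all tested genes. POLDIP3, an export adaptor, had 210.5 ± 4.96 CPM in IFN-beta and 152 ± 4.55 CPM in mock (0.47), and ALYREF, the adaptor that recruits the export receptor, had 222 ± 26.3 and 184 ± 12.4 CPM (0.27, but 0.18 without IFN-beta replicate 3, and not passing on log2(TPM + 1)). Of 7 partners of DEAD box proteins grouped here as MIF4G-type, 3 rose and 1 fell (57.1% called), and by library size alone 1 and 2. NOM1, a nucleolar one, rose (0.19, not passing on log2(TPM + 1)), and PDCD4, an inhibitor of translation, fell (-0.13). Among 13 tested proteins with a related helicase fold and other names, 4 rose and 2 fell (46.2% called), and by library size alone 2 and 6. Of those that rose, EIF4A2, a translation initiation helicase, had 1091 ± 34.3 CPM in IFN-beta and 959.95 ± 15.5 CPM in mock (0.18). SUPV3L1, of mitochondrial RNA decay, had 113 ± 4.25 and 98.9 ± 2.26 CPM (0.20). Neither passed on log2(TPM + 1).

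**Figure D5:**
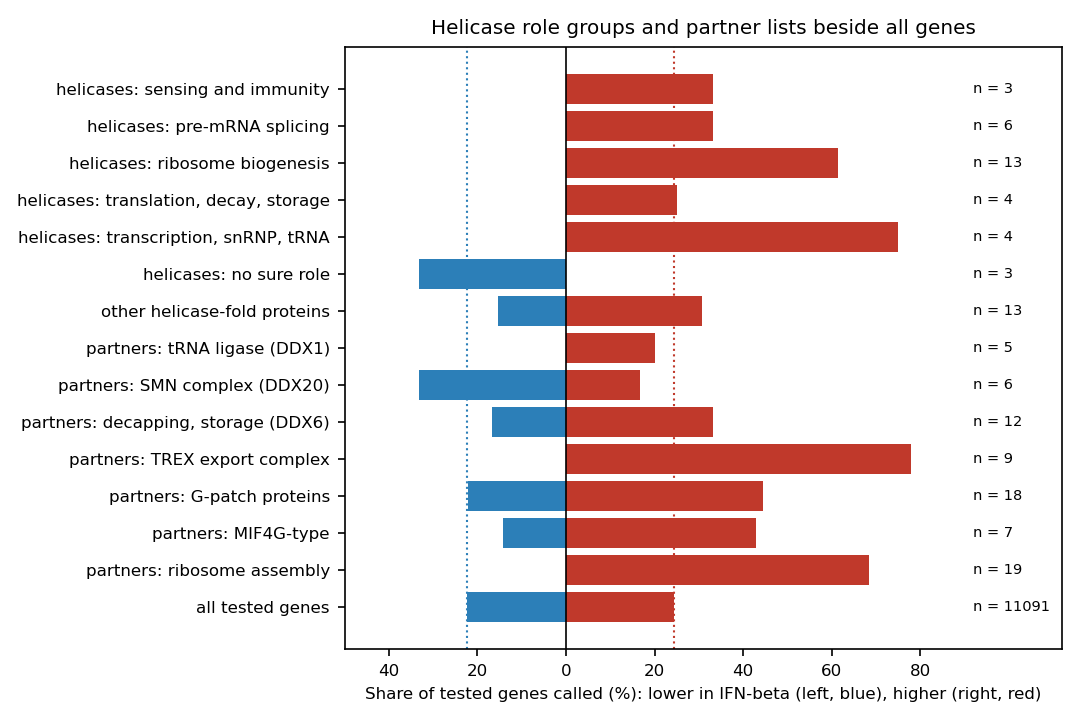
Share of tested genes called higher (right, red) or lower (left, blue) in IFN-beta against mock under TMM. Rows are helicase role groups with at least 3 tested members, the partner lists and all tested genes. Dotted lines mark the shares of all tested genes (24.3% higher and 22.4% lower). The TREX list belongs to DDX39B, which was not analysed here. The ribosome biogenesis helicases (61.5%), the ribosome assembly partners (68.4%) and the TREX complex (77.8%) had more called higher than the background. By library size alone these counts were 4 of 13, 6 of 19 and 2 of 9, against 15.6% of all tested genes. On log2(TPM + 1) they were 4 of 13, 5 of 19 and 1 of 9, against 13.5%.

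Of 3 helicases grouped under sensing of nucleic acids, 1 rose (33.3%, against 24.3% of all tested genes) and 2 did not pass. By library size alone 0 rose and 1 fell, against 15.6% and 36.1% of all tested genes. Members with a part in sensing beside another main role were counted elsewhere, as DDX1 and DDX21, which rose under TMM, and DDX24, which did not pass. DDX41, a splicing helicase also described as a sensor of DNA upstream of STING in mammals, had 48.6, 47.8 and 49.5 CPM in IFN-beta and 48.0, 49.5 and 47.0 CPM in mock, and the groups overlapped (0.01, SE 0.05). On the RefSeq assembly DDX41 overlaps DOK3, which had 925 counts on average against 764 for DDX41, and without a stated strand setting reads of the 2 cannot be told apart where they overlap. The log2 fold change of DOK3 was -0.64. DHX33, of ribosomal RNA synthesis and of inflammasome activation by RNA in human cells, had 121, 127 and 126 CPM in IFN-beta and 121, 127 and 132 CPM in mock (-0.02, SE 0.04), with counts that were not whole, and it was called lower by library size alone and on log2(TPM + 1). DHX36, which resolves G-quadruplexes and binds viral RNA together with DDX1 and DDX21 in mouse dendritic cells, had 168.5, 168 and 163 CPM, against 161, 151 and 152 CPM. It passed narrowly (0.10, SE 0.04, edgeR adjusted p 0.0308). Its call was lost by library size alone (0.01), in the authors' deposited table (adjusted p 0.0827), and without IFN-beta replicate 1 or 2 or mock replicate 2 or 3 (edgeR adjusted p 0.0577 to 0.103).

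In mitochondria, DHX30, which supports ribosome assembly there, had 116, 115 and 110.0 CPM in IFN-beta, against 99.5, 102 and 101 CPM in mock, without overlap (0.17, SE 0.04, edgeR adjusted p 0.00166), and it did not pass by library size alone (0.08, edgeR adjusted p 0.112). DDX28, of the large mitochondrial subunit, had 38.9 ± 2.86 and 43.2 ± 3.85 CPM and did not pass (-0.15, SE 0.07), but was called lower by library size alone, with upper quartile factors, on both TPM scales, with the replicate block and without mock replicate 1. DDX11, a DNA helicase of sister chromatid cohesion, had 35.3, 35.5 and 35.8 CPM in IFN-beta and 35.0, 38.2 and 37.2 CPM in mock and did not pass (-0.05, SE 0.06). By library size alone DDX11 was called lower (-0.14, edgeR adjusted p 0.0380), as it was on both TPM scales.

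DHX57, for which no role is given here, was the 1 member called lower under TMM. It had 24.0, 23.7 and 23.4 CPM in IFN-beta, against 31.1, 28.1 and 24.6 CPM in mock (-0.24, SE 0.08, edgeR adjusted p 0.0172). The groups did not overlap, but mock replicate 3 lay closer to the IFN-beta libraries than to the other mock libraries. Without mock replicate 1 the log2 fold change was -0.15 (edgeR adjusted p 0.136), and the call was also lost without mock replicate 2, without IFN-beta replicate 2 or 3, with DESeq2 (adjusted p 0.0563) and in the authors' deposited table (adjusted p 0.0667). DHX40 (-0.09, SE 0.05) and DDX59 (-0.08, SE 0.08) did not pass. DHX40 was called lower by library size alone, with upper quartile factors and on both TPM scales.

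By class, of 25 tested DDX genes 12 rose by edgeR under TMM (48.0%, against 24.3% of all tested genes) and 13 did not pass. By edgeR under TMM or by DESeq2, 0 were called lower, with 2 (edgeR) and 1 (DESeq2) lower at an unadjusted p under 0.05. By library size alone 7 DDX genes rose and 5 fell. Of 12 tested DHX genes 4 rose and 1 fell (33.3% and 8.33%, against 24.3% and 22.4% of all tested genes). By library size alone 2 DHX genes rose and 6 fell, where 15.6% of all tested genes rose and 36.1% fell. In either direction 48.0% of DDX and 41.7% of DHX genes were called under TMM, near the 46.7% of all tested genes. Medians were 0.12 for DDX and -0.03 for DHX genes. The difference between the 2 classes was not tested. Level ran alongside it: of 8 members above 100 TPM, 7 of them DDX genes, 7 rose (87.5%, against 36.0% of all tested genes at that level), of 25 between 10 and 100 TPM 8 rose (32.0% against 29.0%), and of 4 under 10 TPM 1 rose (25.0% against 13.8%). How far depth per gene sets these shares was not tested.

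The authors' deposited table compares the same libraries and is no independent check. It gave the same sign as the edgeR fit for all 37 tested members. It had an adjusted p under 0.05 for 12 members, which are 12 of the 17 called here, each in the same direction and higher. Members with an adjusted p under 0.05 here and above it in the authors' deposited table were DDX47, DDX52, DDX54, DHX36 and DHX57. On the RefSeq assembly 14 of the 40 members overlap another gene, among them 5 that were called, DDX5, DDX3X, DDX21, DHX36 and DHX30. Neighbours of these 5 found in the count table were few in reads, with 109 counts on average for NYX beside 15566 for DDX3X, 13.1 for STOX1 beside 6212 for DDX21, and 19.8 for GIMAP7L5 beside 1686 for DHX30.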

How the data were processed

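Paired-end RNA sequencing of 6 HD11 libraries was used, grouped by title. The authors deposited gene-level expected counts (fractional for 2322 genes), TPM, and a comparison table of their own. That deposited table holds log2 fold changes with raw and adjusted p-values. The submitters' processing notes name GRCg6a and DESeq2. The sources used here do not name the aligner, counter, annotation or strandedness. The expected counts, rounded, entered edgeR 4.0.16 under R 4.3.3 (filterByExpr, which left 11091 of 14903 genes, TMM, glmQLFit and glmQLFTest, group as the only term, Benjamini-Hochberg over all tested genes, threshold 0.05). An approximate SE was taken from each fold change and its F statistic. The biological coefficient of variation was 3.56%. Reads are not independent molecules.

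The members, roles and partner lists were chosen with earlier results of these data known. Members were named by a rule on size of change, level, role and 15 fixed symbols, of which DDX39B and DHX9 were not analysed here. The others are named because every member is accounted for. Gene identifiers of 40 of 40 members were found in the RefSeq table (GRCg7b), which names DDX19B as DDX19. No promoter or protein sequence was used. No 2 libraries of a group were alike within counting error (chi-square 1.67 to 4.48 times its degrees of freedom, genes with at least 20 counts). Alternatives were DESeq2 1.42.0, other size factors, other filters, a replicate block, glmTreat, limma 3.58.1 on TPM with pseudocounts of 1 and 0.1, and each library left out.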

Additional observations from a re-analysis of the deposited data

How the results depend on the processing

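The 16 members called higher became 13 with DESeq2, 12 with upper quartile factors and 9 by library size alone. They became 8 on log2(TPM + 1), on log2(TPM + 0.1) and on log2(TPM + 1) without a filter. The 1 called lower became 0 with DESeq2 (2 at an unadjusted p under 0.05), 8 with upper quartile factors, 11 by library size alone, 4 with the replicate block, 9 on both TPM scales and 7 without the TPM filter. Against a 1.5-fold change 0 and 0 members and 662 of all genes were called. The members' median of 0.09 was 0.031 with upper quartile factors, -0.0012 by library size alone, -0.025 on both TPM scales and -0.021 without the TPM filter. Leaving out each library gave 13 to 15 higher, 0 to 4 lower, a median of 0.076 to 0.10 and 4353 to 5430 of all genes. By library size alone 1734 of all genes rose and 4008 fell, against 2697 and 2480 by TMM. The scalings differ by construction in where the median gene lies, and leaving out a library leaves fewer samples. For the other settings the cause was not tested.

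Signs of members that did not pass turned for DDX19B (0.02) to -0.043, -0.076 and -0.10 with upper quartile factors, library size alone and TPM, and ran from -0.0094 (without IFN-beta replicate 1) to 0.039 over single libraries left out. DDX41 (0.01) turned to -0.047, -0.080 and -0.099 to -0.10 in the same settings and ran from -0.0046 (without mock replicate 3) to 0.039. DDX24 (0.09) turned to -0.0012 by library size alone and -0.025 on TPM, and DHX33 (-0.02) ran from -0.049 to 0.0062 without IFN-beta replicate 1 and 0.011 without mock replicate 3. DHX36, called higher, turned to -0.010 and -0.011 on TPM without passing. Over the same settings except that against 1.5-fold, DDX47, called higher, reached -0.016, and of members that did not pass DDX23 (0.07) reached -0.046, DDX51 (0.06) -0.059, DHX8 (0.04) -0.076 and DHX34 (-0.14) 6.6e-05. Of 18 members named by rule, no member was called in opposite directions.

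The replicate numbers were not taken to pair the libraries. Deviations of same-numbered libraries correlated at 0.0675 to 0.0831, and those of differently numbered libraries at -0.0602 to -0.0142. Each library correlated best with its own number, a hint from the data and not from the design. With the replicate block 18 members rose and 4 fell, and 5869 of all genes were called, against 5177 without it.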
